A study of Mus musculus with 6 samples.

Results

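A set of 10 genes of macrophages and other leukocytes was measured in the newborn mouse ovary with and without the germ-line transcription factors SOHLH1 and SOHLH2. They were Csf1r, Mrc1, C1qa, C1qb, Tyrobp, Lyz1, Lyz2, Laptm5, Ptprc and Cd68. The genes are known markers of these cells, chosen with earlier results of these data known. Every probe carrying one of these symbols was read. Of the 10 genes, 9 had a probe named here (Cd68 had none and has no value), and 8 passed the detection filter, out of 12163 genes tested and 19057 named. Total RNA came from the ovaries of newborn mice of the strain C57BL/6/129S6/SvEv and was measured on 6 Illumina MouseWG-6 2.0 BeadChip arrays, a one-colour format. Of these, 2 were from wildtype animals (numbered 2 and 3 in the sample titles) and 4 from Sohlh1/Sohlh2 double-knockout animals (numbered 1, 2, 3 and 5). The labels give no further allele or agent, do not describe the alleles, and do not tell whether each sample was a separate animal. The p-values therefore rest on the spread among these 6 samples, which may be technical. All values are log2 levels of the whole ovary after background correction and quantile normalization, and fold changes are double knockout over wildtype unless stated otherwise.

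Tissue macrophages settle in organs before birth, depend on the receptor CSF1R and its ligands CSF1 and IL-34, and clear dying cells with the help of scavenger receptors, complement and lysosomal enzymes. In the ovary around birth many germ cells die, and macrophages are among the cells known to be present there. CSF1R and the mannose receptor MRC1 sit on the surface of resident macrophages, C1qa and C1qb encode chains of the complement protein C1q that macrophages make, and TYROBP is a signalling adaptor of myeloid and natural killer cells. Lyz1 and Lyz2 encode lysozymes that break bacterial cell walls, and Lyz2 is made by granulocytes as well as macrophages. LAPTM5 is a lysosomal membrane protein of blood cells, and PTPRC (CD45) is the phosphatase on the surface of nucleated blood cells.

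The upstream sequence of 5 of the genes is shown because these 5 stand for the patterns described below: the levels of Lyz1 and Lyz2 varied together over the arrays, those of C1qb and Mrc1 varied with each other, and Laptm5 was higher on all 4 double-knockout arrays than on either wildtype array. RefSeq promoter windows on GRCm38.p6 were at hand for 7 of the 10 genes, and the 250 bases before the start are printed 5′ to 3′ on the gene's strand. The windows are chr10:117292869-117293118 on the minus strand for Lyz1, chr10:117282273-117282522 on the minus strand for Lyz2, chr4:136886201-136886450 on the minus strand for C1qb, chr2:14229164-14229413 on the plus strand for Mrc1 and chr4:130913066-130913315 on the plus strand for Laptm5. Capitals mark matches on either strand to GAGGAA, the core bound by PU.1, a transcription factor of myeloid cells, or to GGAAGT, a site of the wider ETS family.
Lyz1: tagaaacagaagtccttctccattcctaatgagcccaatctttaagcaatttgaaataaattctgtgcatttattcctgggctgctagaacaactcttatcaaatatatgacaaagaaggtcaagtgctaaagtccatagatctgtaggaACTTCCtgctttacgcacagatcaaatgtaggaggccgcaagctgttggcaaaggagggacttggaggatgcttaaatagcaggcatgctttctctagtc
Lyz2: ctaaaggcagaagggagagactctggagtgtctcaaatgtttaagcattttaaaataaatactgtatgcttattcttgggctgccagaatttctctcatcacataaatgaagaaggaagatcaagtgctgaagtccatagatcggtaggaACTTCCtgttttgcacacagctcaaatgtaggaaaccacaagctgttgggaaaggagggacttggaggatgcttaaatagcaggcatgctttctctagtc
C1qb: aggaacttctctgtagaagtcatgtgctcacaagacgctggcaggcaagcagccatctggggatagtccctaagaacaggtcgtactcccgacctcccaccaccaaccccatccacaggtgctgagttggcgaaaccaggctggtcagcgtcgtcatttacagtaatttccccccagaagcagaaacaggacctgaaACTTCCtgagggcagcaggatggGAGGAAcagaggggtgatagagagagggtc
Mrc1: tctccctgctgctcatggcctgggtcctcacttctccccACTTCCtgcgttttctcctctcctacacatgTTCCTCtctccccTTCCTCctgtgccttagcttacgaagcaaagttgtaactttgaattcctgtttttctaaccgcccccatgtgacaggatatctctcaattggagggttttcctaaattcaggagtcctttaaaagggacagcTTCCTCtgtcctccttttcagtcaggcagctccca
Laptm5: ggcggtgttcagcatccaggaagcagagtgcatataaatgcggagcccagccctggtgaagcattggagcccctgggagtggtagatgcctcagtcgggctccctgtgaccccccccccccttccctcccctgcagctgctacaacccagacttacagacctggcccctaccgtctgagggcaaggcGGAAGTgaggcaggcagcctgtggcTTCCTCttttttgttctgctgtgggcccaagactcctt

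In each of the 7 genes with a window, at least 1 of the 2 motifs was present, against 36.7% of the 32851 windows of the table (GAGGAA in 23.3% and GGAAGT in 19.7%). Lyz1 and Lyz2 lie next to each other on chromosome 10, and their windows were identical at 200 of 252 aligned positions, or 79.4%. Both held GGAAGT once, on the opposite strand, 100 to 95 bases before the start, and neither held GAGGAA. Mrc1 held GAGGAA at 3 places and C1qb and Laptm5 at 1 each. The E-box CANNTG, the motif of the protein class to which SOHLH1 and SOHLH2 belong, was found once in Laptm5, at 2 places in Lyz1 and at 3 each in Lyz2, C1qb and Mrc1, while 66.2% of all windows held it. These matches describe the letters of a window and nothing more.

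Each array carried 45281 probes and detected 20124 to 20594 of them. All 6 arrays lay on 1 slide. Precision is limited by how few arrays there are. Sohlh1 was lower in the double knockout at both of its probes (log2 fold changes of -3.29 and -3.32), while Sohlh2 had 1 probe, above background on 1 wildtype array only, which did not pass the filter. Whether the probes fall inside the deleted sequence is not given in the sources used here, and one outside it would check nothing. Double-knockout array 3 was often the highest in some lists of blood-cell genes: of 15 tested neutrophil and granulocyte markers it was the highest array for 14, and of 20 other pan-leukocyte genes for 17, against 16.4% of all tested genes. Elsewhere it was the highest for 6 of 24 other macrophage, 5 of 7 erythroid, 2 of 8 T and NK cell and 0 of 10 mast cell markers. The largest gaps among the granulocyte markers, named after their values were seen, were in genes of granule proteins. Mpo, myeloperoxidase, had log2 levels of 9.67 and 5.44 in the wildtype and 4.38, 9.59, 13.05 and 4.26 in the double knockout. Prg2, a granule protein of eosinophils, had 8.07 and 4.32 against 4.47, 4.41, 11.96 and 4.36. Array 3 was thus the highest for both, and wildtype array 2 was well above wildtype array 3. Whether these samples held more blood cells or other tissue than the rest was not tested. The values of that array touch several results below, which are therefore also given without it.

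Among all 12163 genes tested, 10.1% passed the threshold of an adjusted p under 0.05 (limma with Benjamini-Hochberg adjustment over all genes), 5.69% as higher and 4.42% as lower in the double knockout. None of the 8 tested macrophage and leukocyte genes did, and 2 of the 8 had an unadjusted p under 0.05, against 27.2% of all genes. The arrays of the 2 genotypes did not overlap for 2 of the 8, Laptm5 (higher) and Mrc1 (lower), against 38.1% of all genes. The median log2 fold change of the 8 genes was 0.04, beside 0.03 over all tested genes. In the fit over 21981 probes, where 7.27% passed, 0 of the 10 tested probes of these genes passed. The count of 0 rests partly on the processing, since Laptm5 passed under 3 of 17 alternative settings.

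**Figure D1:**
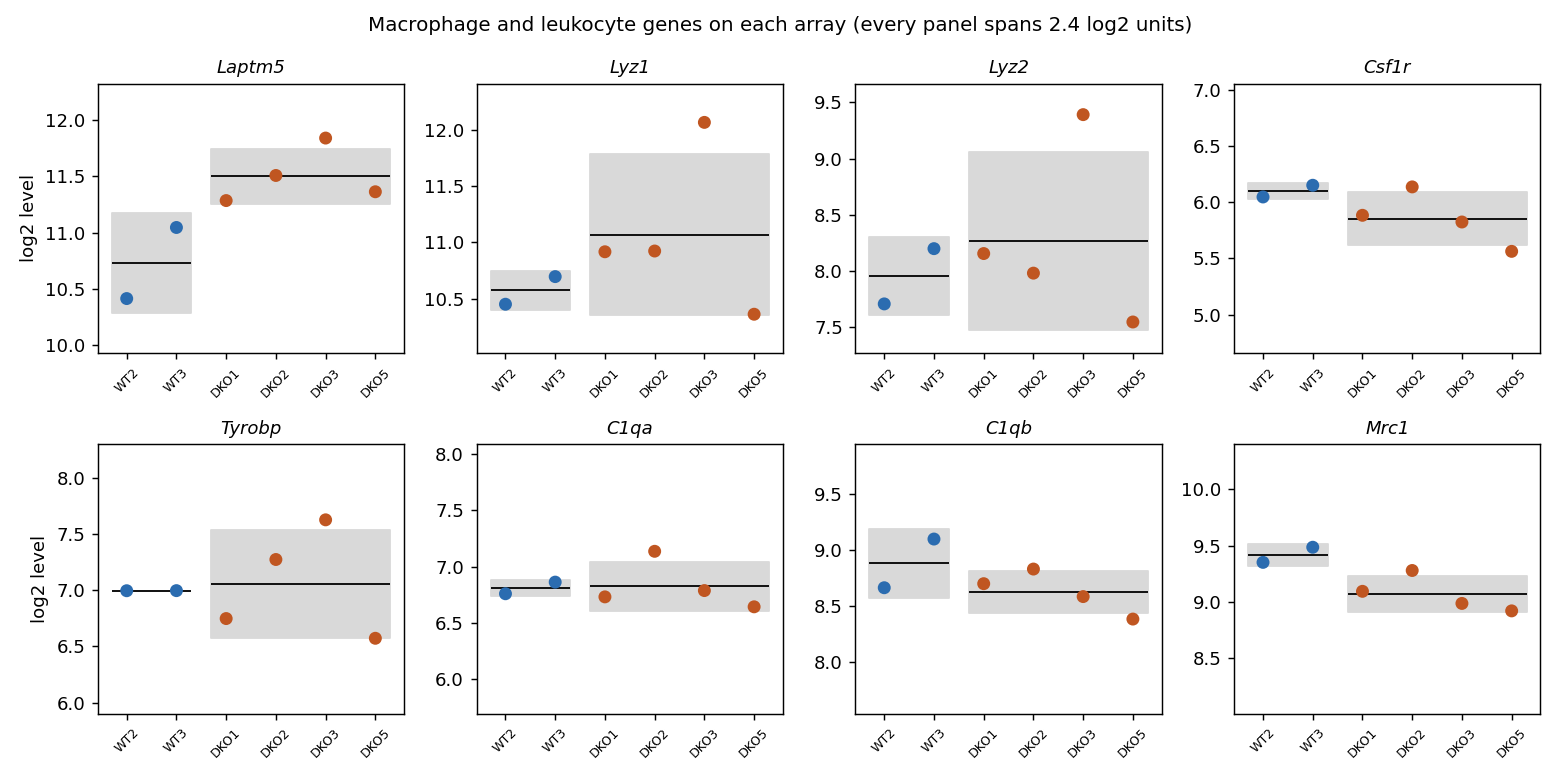
Log2 level of each tested gene (vertical axis) on each array (horizontal axis: wildtype arrays WT2 and WT3 in blue, double-knockout arrays DKO1, DKO2, DKO3 and DKO5 in orange), with the genotype mean as a line and 1 SD either side as a grey band. Laptm5 lies higher on all 4 double-knockout arrays and Mrc1 lower on all 4, while Lyz1, Lyz2 and Tyrobp peak on DKO3.

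In a whole ovary, fewer cells of a type and less RNA per cell cannot be told apart. Csf1r, the receptor on which macrophage survival depends, had log2 levels of 6.05 and 6.15 on the wildtype arrays and 5.88, 6.14, 5.82 and 5.56 on double-knockout arrays 1, 2, 3 and 5. Double-knockout array 2 lay between the wildtype arrays and the others below both. The log2 fold change was -0.25 ± 0.17 (SE, n = 2 and 4; limma adjusted p = 0.389), with a 95% interval of -0.63 to 0.14. Its dimmer probe gave 4.86 and 5.32 against 4.94, 4.98, 4.76 and 4.53, a log2 fold change of -0.29 ± 0.19, and was not detected on double-knockout array 5.

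Mrc1, which takes up glycoproteins with exposed mannose, had log2 levels of 9.35 and 9.49 in the wildtype and 9.09, 9.28, 8.98 and 8.92 in the double knockout. All 4 double-knockout arrays were below both wildtype arrays. The log2 fold change was -0.35 ± 0.15 (SE, n = 2 and 4), an unadjusted p of 0.0411 and an adjusted p of 0.163 in limma, so this difference did not pass the test. It was negative under each of the 17 alternative settings, from -0.42 to -0.23, with adjusted p from 0.0981 to 0.508.

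The chains of C1q start the classical complement pathway and tag dying cells. C1qb had log2 levels of 8.66 and 9.10 in the wildtype and 8.70, 8.83, 8.58 and 8.38 in the double knockout, and C1qa 6.76 and 6.86 against 6.73, 7.14, 6.79 and 6.64. For both genes the genotypes overlapped, with double-knockout array 5 the lowest. The log2 fold changes were -0.26 ± 0.18 (SE) for C1qb and 0.01 ± 0.16 (SE) for C1qa, with limma adjusted p of 0.393 and 0.967. The intervals reached from -0.66 to 0.15 and from -0.36 to 0.39. C1qc, which lies between C1qa and C1qb in the genome and encodes the third chain, gave a log2 fold change of -0.38 ± 0.28 (adjusted p = 0.423).

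Tyrobp, the adaptor of the receptors TREM2 and TREM1, had log2 levels of 6.996 and 6.997 on the wildtype arrays and 6.75, 7.27, 7.63 and 6.57 on the double-knockout arrays. The double-knockout arrays lay on both sides of the wildtype, with array 3 the highest and array 5 the lowest. The log2 fold change was 0.06 ± 0.27 (SE; limma adjusted p = 0.914) and -0.13 without double-knockout array 3.

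Lyz1 had log2 levels of 10.45 and 10.70 in the wildtype and 10.92, 10.92, 12.07 and 10.36 in the double knockout. Lyz2 had 7.71 and 8.20 against 8.15, 7.98, 9.39 and 7.54. For both lysozymes double-knockout array 3 was the highest, 2.64-fold (Lyz1) and 2.78-fold (Lyz2) above the mean of the other 5 arrays on the log2 scale, and array 5 was the lowest. The log2 fold changes were 0.50 ± 0.39 and 0.32 ± 0.43 (SE), with limma adjusted p of 0.453 and 0.682. Without double-knockout array 3 they were 0.16 and -0.06. Of the 3 Lyz1 probes 1 passed the detection filter, and the others were detected on 1 array (double-knockout array 1) and on 0. Of the 3 Lyz2 probes 2 passed, and the dimmer, detected on 3 of the 6 arrays, gave a log2 fold change of -0.11 ± 0.26. The coding sequences of Lyz1 and Lyz2 are close copies, so a probe of one may also read the other, and probe sequences were not used here.

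Laptm5 had log2 levels of 10.41 and 11.05 in the wildtype and 11.29, 11.51, 11.84 and 11.36 in the double knockout. All 4 double-knockout arrays were above both wildtype arrays, with an SD of 0.45 in the wildtype (n = 2) and 0.25 in the double knockout (n = 4). The difference was 1.71-fold, a log2 fold change of 0.77 ± 0.22 (SE, n = 2 and 4; 95% interval 0.28 to 1.27), with an unadjusted p of 0.00664 and a limma adjusted p of 0.0576, which did not pass. It passed with no background correction (0.75, adjusted p = 0.0405), with an offset of 50 (0.76, 0.0440) and on the authors' normalized values (0.76, 0.0348). Over the 17 alternatives the adjusted p ran from 0.0348 to 0.420. Leaving out wildtype array 2 gave a log2 fold change of 0.45, and leaving out wildtype array 3 gave 1.08.

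Ptprc was not detected on any array at any of its 4 probes. Their raw signals lay between 45.6 and 59.1, beside array medians of 59.3 to 61.1, and the detection p was never under 0.05. The other genes were above background on all 6 arrays at their brightest probe. Ptprc thus has no order between the genotypes.

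**Figure D2:**
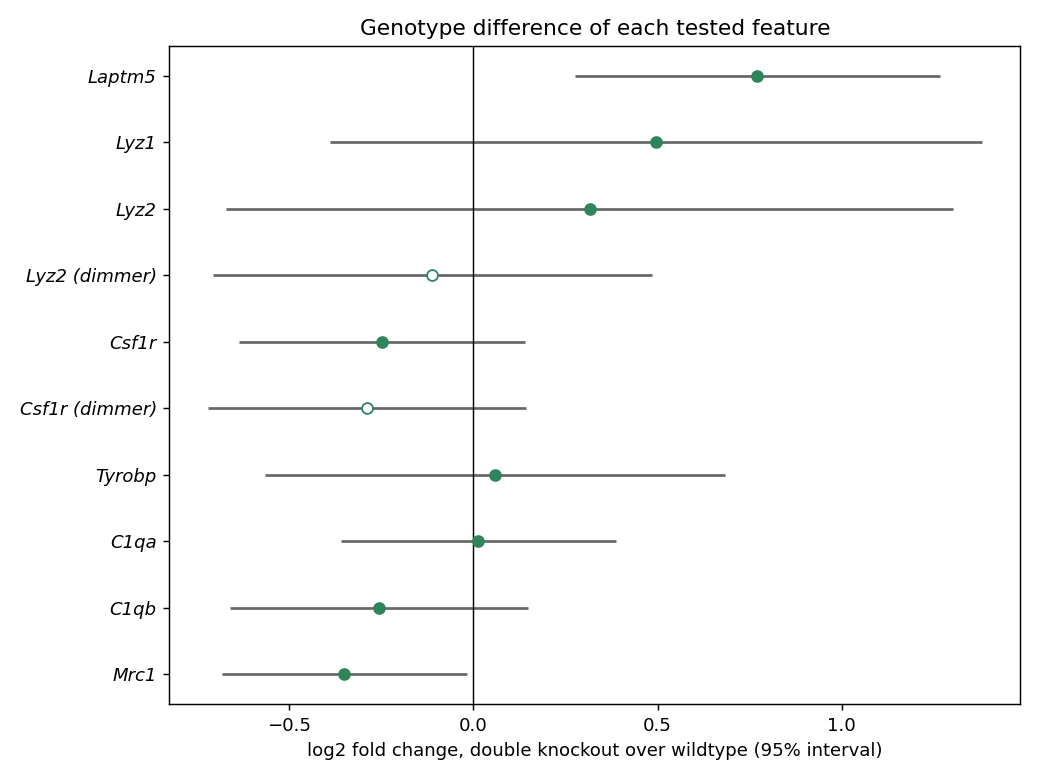
Log2 fold change, double knockout over wildtype (horizontal axis), of each tested probe (vertical axis), with the limma 95% interval; filled points are the probe that represents the gene in the fit over genes, and open points a dimmer probe of the same gene in the fit over probes. The intervals of Laptm5 and Mrc1 leave out 0 before adjustment and the others hold it.

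Over the 6 arrays the genes moved in separate ways, which is given here as a description without a test, since the groups below were formed after seeing the values and 6 arrays on 1 slide are few. Pearson's r among Csf1r, Mrc1, C1qb and C1qa ran from 0.50 to 0.91 over their 6 pairs. For these genes wildtype array 3 or double-knockout array 2 was the highest and double-knockout array 5 the lowest. Among Tyrobp, Lyz1 and Lyz2 r was 0.80 to 0.97 over 3 pairs, with double-knockout array 3 the highest for each. Between the groups r was -0.33 to 0.51 over 12 pairs. For scale, 4.98% of all pairs of tested genes had r of at least 0.8 and 19.9% at least 0.5.

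With the genotype means taken out the pairs of the first group gave r of 0.73 to 0.95, those of the second 0.81 to 0.99 and those between them -0.04 to 0.51. The distance between the groups depended on double-knockout array 3. Without it, r between the groups was 0.24 to 0.92, with Tyrobp and C1qa at 0.92 and Tyrobp and Csf1r at 0.90, while Tyrobp gave 0.50 with Lyz1 and 0.38 with Lyz2. The first group gave 0.51 to 0.93, and Lyz1 with Lyz2 gave 0.82. Laptm5 correlated with Lyz1 at 0.71 and with Mrc1 at -0.61, and after removal of array 3 at 0.49 and -0.48. After the genotype means were taken out, Laptm5 gave 0.71 with Lyz1 and 0.17 with Mrc1, and 0.17 to 0.76 over its 7 pairs. The negative r with Mrc1 was thus not seen once the difference between the genotypes was removed.

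Double-knockout array 5 was the lowest array for 7 of the 8 genes, all but Laptm5, against 17.4% of all tested genes. On that array Lyz2 was 0.74, Lyz1 0.65, Tyrobp 0.56, Csf1r 0.45 and C1qa 0.21 below the mean of the other 5 arrays on the log2 scale. The 8 genes outside the list whose levels ran closest to the mean of the 8 tested genes were Gusb, a lysosomal glucuronidase (r = 0.98), Tceal3, Adprhl2, Tshz2, Fth1, the ferritin heavy chain (each r = 0.97), Ruvbl1, Cptp and Kdelr2. They were among 76 of 12155 genes with r of at least 0.9 over these 6 arrays.

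**Figure D3:**
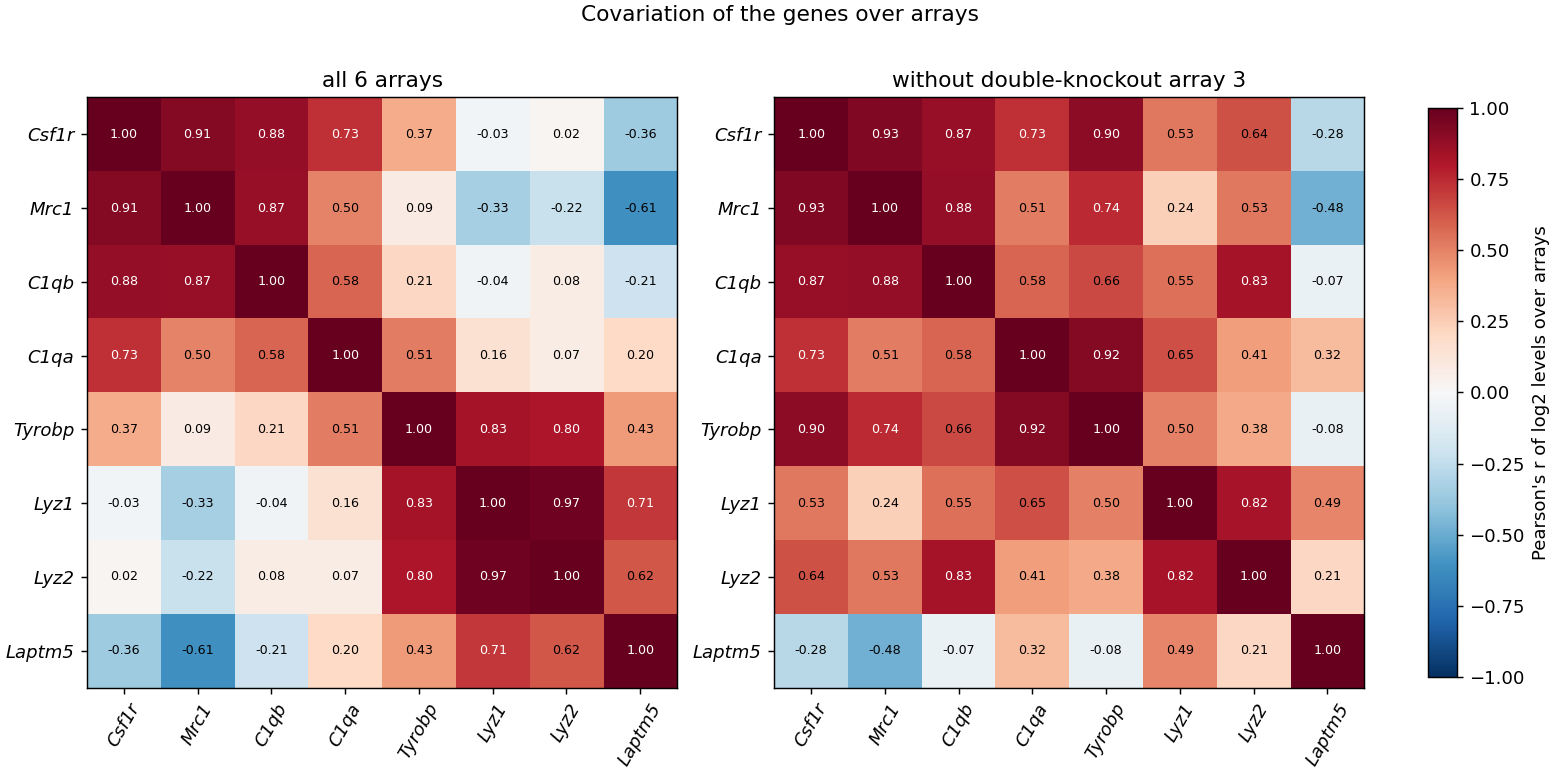
Pearson's r of the log2 levels of each pair of genes over all 6 arrays (left) and over the 5 arrays other than double-knockout array 3 (right), coloured from -1 (blue) to 1 (red). Csf1r, Mrc1, C1qb and C1qa correlate in both panels, and Tyrobp moves from the lysozymes (0.83 and 0.80) to Csf1r (0.90) and C1qa (0.92) when array 3 is left out.

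Granulocyte genes were mostly highest on the array where the lysozymes were highest. Of 19 named neutrophil and granulocyte markers 15 were tested, and 0 of the 15 passed the limma test (0 also had an unadjusted p under 0.05). Over the 15, the summed signal was 1651 to 2635 in the wildtype and 560 to 25910 in the double knockout, with array 5 at 560 and array 3 at 25910; without array 3 the double-knockout range was 560 to 1984. Their median log2 fold change was 0.30, and -0.31 without array 3. Of the 15, 9 had r of at least 0.8 with the lysozyme group, against 2.54% of all tested genes, and without array 3 it was 3 of 15 against 5.28%. S100a8, a calcium-binding protein of neutrophils and monocytes, had log2 levels of 8.65 and 9.32 in the wildtype and 9.28, 8.36, 12.37 and 6.79 in the double knockout, so array 3 was 14.9-fold above the mean of the other 5. Its log2 fold change was 0.22 ± 1.21 (SE; adjusted p = 0.929) and -0.84 without array 3. Lcn2, which binds bacterial siderophores, had 8.22 and 8.74 against 7.88, 7.18, 8.78 and 6.25, with a log2 fold change of -0.95 ± 0.57 (adjusted p = 0.321). Prtn3, a granule protease named after its values were seen, had 7.48 and 5.49 against 5.51, 7.54, 10.87 and 5.51, high on wildtype array 2 and double-knockout array 2 as well as on array 3.

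Of these 15 markers 9 had r of at least 0.8 with the mean of Lyz1, Lyz2 and Tyrobp, and 0 with the mean of Csf1r, Mrc1, C1qb and C1qa. Without double-knockout array 3 the counts were 3 and 2. Of 4 granulocyte markers that did not pass the filter, Cxcr2 and Mmp8 were detected on 0 arrays. The part of granulocyte RNA in the lysozyme and Tyrobp levels was not tested.

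The other pan-leukocyte genes were also mostly highest on array 3. Of 26 named, 20 were tested, 0 rose and 1 fell, with a median log2 fold change of 0.32 (0.31 with 1 gene that was not detected in the wildtype at its bound), which was 0.068 without array 3. Their summed signal was 2288 to 2367 in the wildtype and 2208 to 5420 in the double knockout, where it was 2208 to 2790 without array 3. With the lysozyme group 14 of 20 had r of at least 0.8, and 3 without array 3, against the same shares of all genes as above. Lcp1, an actin-bundling protein of leukocytes that other cells also make, was the one that fell. It had 7.05 and 6.61 against 5.76, 5.43, 6.20 and 5.30, lower on all 4 double-knockout arrays, with a log2 fold change of -1.16 ± 0.25 (adjusted p = 0.0256, and 0.234 without wildtype array 2). The call was lost in 5 of 17 alternatives, and the log2 fold change was -0.67 with no background correction. The log2 fold change was positive for 17 of the 20 tested genes. Cytip (1.15 ± 0.33, limma adjusted p = 0.0611) and Cyth4 (0.62 ± 0.19, 0.0696) were higher on all 4 double-knockout arrays and did not pass. Lcp2, Cd48, Itgal and Dock2 were detected on 0 arrays, and Cd53 and Itgb2 on 1.

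Of 31 other named macrophage markers 24 were tested, 1 rose and 0 fell, with a median log2 fold change of -0.04. Their summed signal was 6419 to 7331 in the wildtype and 5755 to 7563 in the double knockout. Timd4, a receptor for phosphatidylserine on dying cells, was not detected in the wildtype and was detected on all 4 double-knockout arrays. It was at least 1.24-fold higher (levels of 4.45 and 4.53 against 4.85, 5.18, 5.07 and 5.01; adjusted p = 0.0429), close to background, and it did not pass in 12 of 17 alternatives. An unadjusted limma p under 0.05 was found for 3 of the 24, Timd4 among them, against 27.2% of all genes. The others, Lgals3 (-0.96 ± 0.38, adjusted p = 0.143) and Lyve1 (-0.76 ± 0.30, adjusted p = 0.141), were lower on all 4 double-knockout arrays. Neither passed, and the log2 fold change was positive for 11 of the 24. Of the 24, 4 had r of at least 0.8 with the Csf1r group (Aif1, C1qc, Ms4a7 and Clec4n, at 0.94, 0.93, 0.91 and 0.89), against 4.94% of all tested genes. The median over the 24 was 0.39, Marco was at -0.82, and 4 of 24 had r of at least 0.8 with the lysozyme group. Without double-knockout array 3 the counts were 6 of 24 with the Csf1r group, against 6.99% of all genes, and 7 with the lysozyme group, against 5.28%. Other lists also held such genes: over all 6 arrays 2 of 4 megakaryocyte and platelet markers (median r of 0.80) and 3 of 21 lysosomal genes reached 0.8 with the Csf1r group. Adgre1, an adhesion receptor widely used as a macrophage marker, was detected on all 6 arrays and gave a log2 fold change of -0.08 ± 0.12. Cd163, Ms4a6c, Ctss, Cybb, Vsig4, Clec10a and Ccr2 were detected on 0 arrays.

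**Figure D4:**
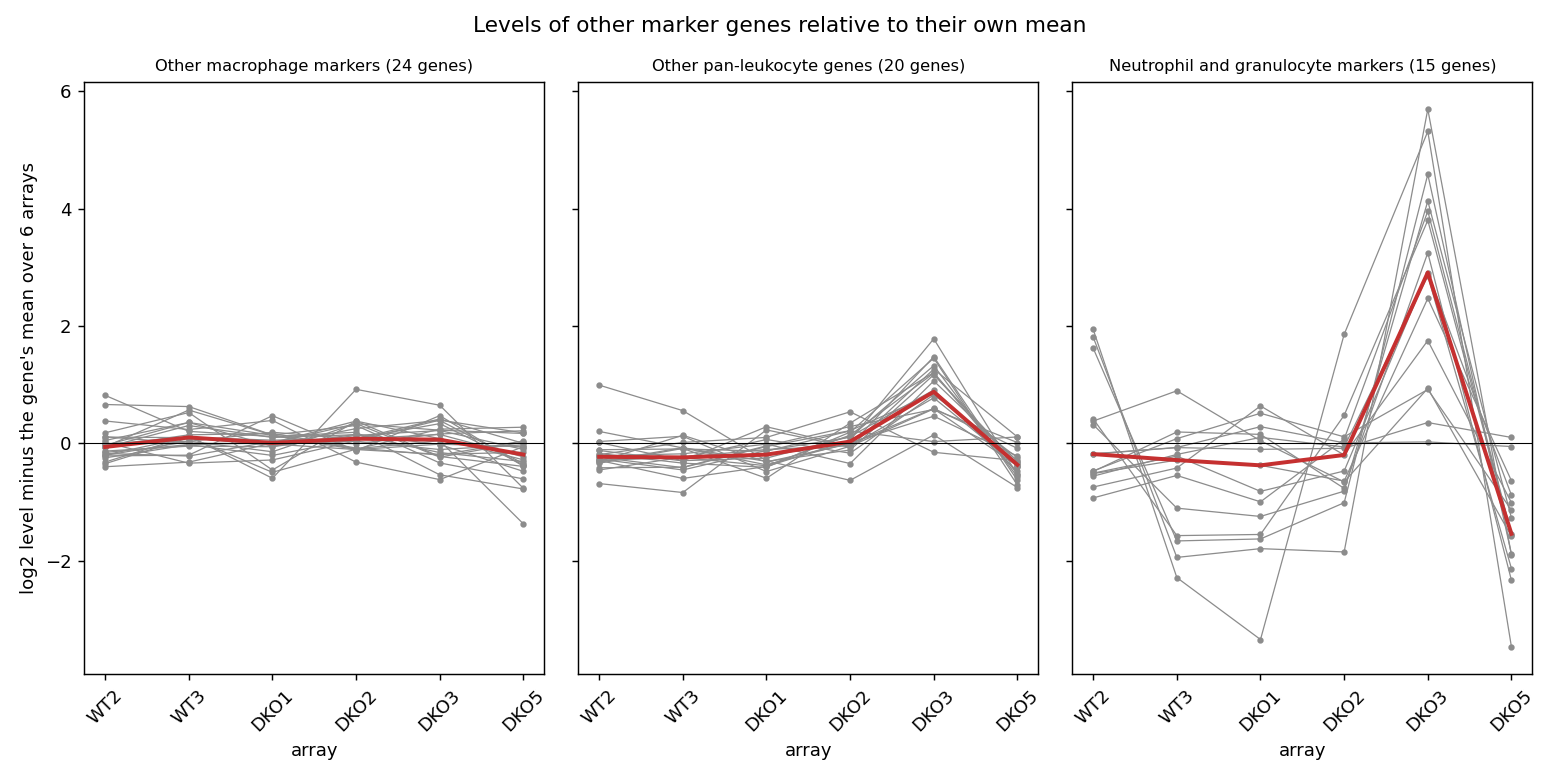
Log2 level of each gene minus its own mean over the 6 arrays (vertical axis) on each array (horizontal axis), for other macrophage markers, other pan-leukocyte genes and granulocyte markers; grey lines are genes and the red line is the median over the genes of a panel. DKO3 is the highest array for 6 of 24, 17 of 20 and 14 of 15 genes.

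Among CSF1R ligands, TYROBP-coupled receptors and their signalling proteins, 12 of 15 named were tested, 1 rose and 1 fell, and the median log2 fold change was 0.15. Il34, a ligand of CSF1R, had log2 levels of 6.38 and 6.74 in the wildtype and 5.55, 4.99, 5.05 and 5.51 in the double knockout, lower on all 4 arrays. It fell by 1.29 ± 0.21 (SE, n = 2 and 4) on the log2 scale, or 2.44-fold (limma adjusted p = 0.00723, and 0.0708 without wildtype array 3). With no background correction the log2 fold change was -0.68, and -0.81 on the authors' values, and it passed under both. Csf1, the other ligand, had 5.38 and 5.39 against 5.60, 5.62, 5.30 and 5.08 and a log2 fold change of 0.02 ± 0.18 (adjusted p = 0.965). Trem2, a lipid-sensing receptor of macrophages, gave -0.02 ± 0.18.

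Btk, a kinase downstream of such receptors that B cells and mast cells also express, had 6.55 and 6.53 in the wildtype and 8.05, 8.24, 8.81 and 8.69 in the double knockout. It rose 3.76-fold (log2 fold change 1.91 ± 0.22 SE, adjusted p = 0.00153) and passed under all 17 alternatives. Mast cell markers were also mostly higher in the double knockout, with 7 of 10 tested higher and 1 (Gata2) lower, Tpsb2 leading with a log2 fold change of 1.77 ± 0.17. Their summed signal was 10192 to 10331 in the wildtype and 26279, 26041, 20250 and 17706 on double-knockout arrays 1, 2, 3 and 5. Among the double-knockout arrays it was thus higher on arrays 1 and 2, where Btk was lower. The part of mast cells in the Btk and Laptm5 levels was not tested.

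Of 18 tested genes for the engulfment of dying cells 5 rose, beside 5.69% of all genes, and 0 fell, with a median log2 fold change of 0.25 (0.23 with 2 genes at their bound). Mertk, a receptor that recognises dying cells through GAS6 and protein S, had 6.87 and 7.19 against 8.45, 7.89, 7.86 and 7.98, higher on all 4 double-knockout arrays (log2 fold change 1.02 ± 0.20 SE, adjusted p = 0.0159). Its ligand gene Gas6 had 12.09 and 12.53 against 13.08, 13.13, 12.84 and 12.95 (0.69 ± 0.16, adjusted p = 0.0346). P2ry6, a receptor for nucleotides released by damaged cells, gave 0.76 ± 0.15 (adjusted p = 0.0169), and Elmo1, a partner of DOCK1 in remodelling actin, 0.54 ± 0.12 (0.0302). Timd4, already described, was the remaining one. The call was lost in 3 of 17 alternatives each for Mertk and P2ry6. For Gas6 and Elmo1 it was lost in 6 of 17 each, with a limma adjusted p of up to 0.291 and 0.177.

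Mfge8, which bridges phosphatidylserine to integrins, gave 0.34 ± 0.13 and Dock1 -0.45 ± 0.13, and neither passed. Leaving out wildtype array 2 left 0 that rose, leaving out wildtype array 3 or double-knockout array 1 left 2, and leaving out any other array left 3. Several of these genes are also made by ovarian cells that are not macrophages. Of 7 ovarian somatic markers 1, Amhr2, rose (0.63 ± 0.16, adjusted p = 0.0386, a call lost in 9 of 17 alternatives), with a summed signal over the 7 of 3792 to 5298 in the wildtype and 6128 to 6751 in the double knockout. Amhr2, at log2 levels of 11.30 to 12.23, made up most of that sum. The log2 fold change was positive for 6 of the 7, while Nr2f2 was lower on all 4 double-knockout arrays (-0.52 ± 0.22, limma adjusted p = 0.166). Of 12 endothelial markers 1, Vwf, rose (1.12 ± 0.26, adjusted p = 0.0336, lost in 5 of 17), with sums of 8162 to 9210 and 9553 to 12086. The part of these cells in the engulfment genes was not tested.

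**Figure D5:**
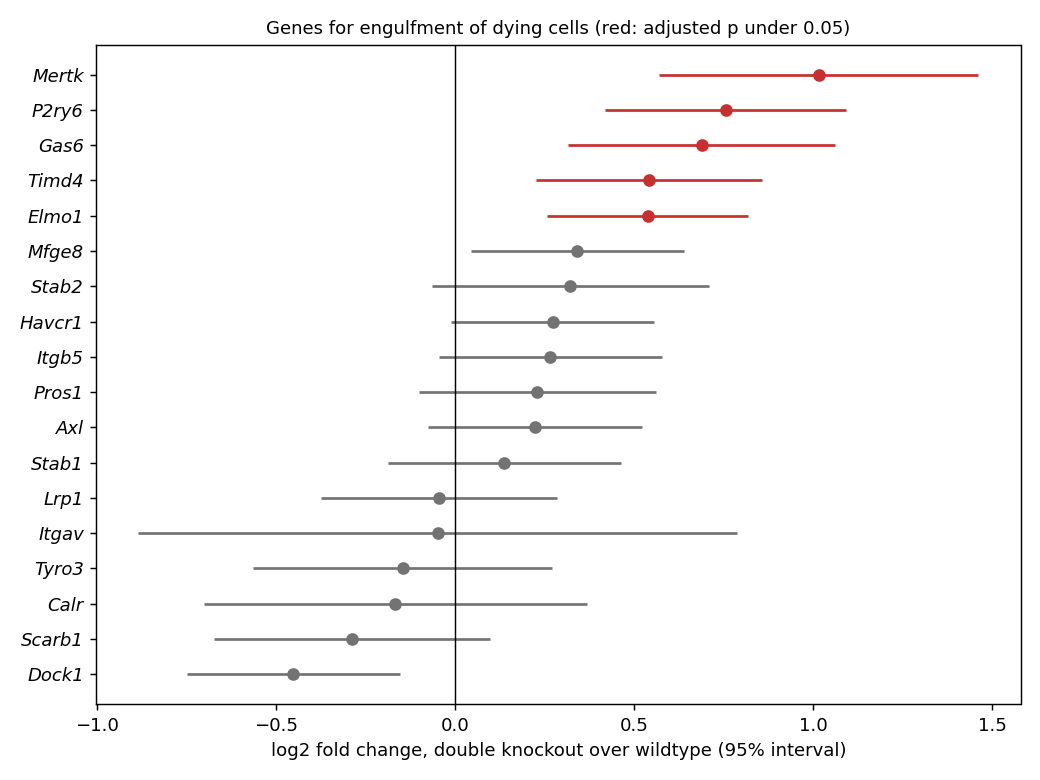
Log2 fold change, double knockout over wildtype (horizontal axis), with its limma 95% interval, for the 18 tested genes for engulfment of dying cells (vertical axis); red marks an adjusted p under 0.05. The 5 red genes lie between 0.54 and 1.02, and the point of Timd4 is a fitted value for a gene not detected in the wildtype.

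Other complement genes showed 0 of 10 tested past the threshold and 3 at an unadjusted limma p under 0.05, with a median of 0.13. Those 3 were Cd55 (-0.52 ± 0.18), C1s1 (-0.47 ± 0.20) and Masp1 (-0.43 ± 0.13), each lower on all 4 double-knockout arrays. The log2 fold change was positive for 6 of the 10. The 2 brightest of the 10 were Serping1, the C1 inhibitor (0.03 ± 0.19), and Cd59a, which blocks the membrane attack complex (0.39 ± 0.24). Of 21 lysosomal genes 1 rose, Lipa, the acid lipase (0.60 ± 0.15, adjusted p = 0.0439), with a median of 0.03. Its call was lost in 9 of 17 alternatives, with an adjusted p of up to 0.259. An unadjusted limma p under 0.05 was found for 6 of the 21, against 27.2% of all genes. Lipa, Psap, Gm2a and Hexa were higher on all 4 double-knockout arrays. Ctsk (-1.01 ± 0.29, adjusted p = 0.0599), the largest change of the list, and Ctsl (-0.47 ± 0.15, 0.0844) were lower on all 4. Of 11 myeloid transcription factors 1 rose, Runx1, a regulator of blood cell formation also made by ovarian somatic cells (5.47 on both wildtype arrays against 6.20, 6.22, 6.02 and 6.10; 0.67 ± 0.13, adjusted p = 0.0148). That is the value of its brightest probe: the mean of its probes gave 0.10 (adjusted p = 0.650), and the call was lost in 4 of 17 alternatives, among them those without wildtype array 2 or 3.

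Of 9 chemokine genes 1 fell, Cxcl10, an interferon-induced attractant of T cells (6.08 and 6.62 against 5.38, 5.20, 5.43 and 5.19; log2 fold change -1.05 ± 0.18, adjusted p = 0.00873), at -0.55 with no background correction and lost in 1 of 17 alternatives. Of 9 MHC class II and dendritic cell genes 1 fell, Batf3, a transcription factor of dendritic cells (-0.62 ± 0.13, adjusted p = 0.0223), with a median of -0.37 over the genes. Its call was lost in 7 of 17 alternatives, and the log2 fold change was -0.28 with no background correction and -0.36 on the authors' values and with the mean of its probes. The class II chain H2-Ab1 gave 7.98 and 8.34 against 7.68, 7.89, 7.91 and 7.69 (-0.37 ± 0.15, adjusted p = 0.166). Its chaperone Cd74 gave -0.49 ± 0.19 (adjusted p = 0.138), and neither passed the threshold. H2-DMa, of the same list, was higher on all 4 double-knockout arrays (0.58 ± 0.18, limma adjusted p = 0.0791) and did not pass either. H2-DMb1 gave 0.05 ± 0.19. H2-Eb1 was lower on all 4 double-knockout arrays (-0.43 ± 0.16, limma adjusted p = 0.116), and Zbtb46 gave -0.70 ± 0.28 with overlapping genotypes. The log2 fold change was positive for 2 of the 9 genes. An unadjusted limma p under 0.05 was found for 6 of the 9, against 27.2% of all genes, and among the 6 only H2-DMa was higher. H2-Aa, Itgax, Clec9a, Xcr1, Ciita and Ccr7 were detected on 0 arrays.

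Of 18 named T and NK cell markers 10 did not pass the detection filter, and of the 8 tested 0 passed limma's test (1 at an unadjusted p under 0.05), and Cd3d, Cd3g and Cd8a were detected on 0 arrays, while the sum over the tested genes was 2100 to 2379 in the wildtype and 2090 to 2302 in the double knockout. Cd8b1, at log2 levels of 10.66 to 11.02, made up most of that sum, which says little about the other markers. The brightest, Cd8b1 and Prf1, gave -0.09 ± 0.14 and 0.50 ± 0.31. Of 11 named B cell markers 6 did not pass the filter, and of the 5 tested 2 rose, Vpreb1 (at least 1.54-fold higher) and Igll1 (at least 1.26-fold higher), the surrogate light chain of B cell precursors, neither detected in the wildtype. Both lay near background, and the call was lost in 10 of 17 alternatives for Vpreb1 and 9 of 16 for Igll1. The list's summed signal was 160 to 164 in the wildtype and 186 to 238 in the double knockout, and Ms4a1, Pax5 and Cd22 were detected on 0 arrays.

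Of 7 erythroid markers 1 rose, Alas2, the first enzyme of haem synthesis in red cells (1.35 ± 0.32, adjusted p = 0.0357, lost in 6 of 17 alternatives), with sums of 23660 to 25399 in the wildtype and 26223 to 30533 in the double knockout, and array 3 was the highest for 5 of 7. Hba-a1, at log2 levels of 14.51 to 14.80, made up most of these sums, and its log2 fold change was 0.09 ± 0.13. Slc4a1 had the largest log2 fold change of the list, 3.72 ± 1.05, higher on all 4 double-knockout arrays, and did not pass (limma adjusted p = 0.0579). Of 4 megakaryocyte and platelet markers 0 passed (1 at an unadjusted p under 0.05), and Pf4, a platelet chemokine, gave -0.90 ± 0.32 (adjusted p = 0.111) and Itga2b 0.45 ± 0.21. Of 5 germ cell markers 3 fell. One is Sohlh1 itself, the knocked-out gene, and the others are Gdf9, a growth factor of oocytes (-2.73 ± 0.33, adjusted p = 0.00193), and Figla, an oocyte transcription factor (-1.09 ± 0.16, adjusted p = 0.00517).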

How the data were processed

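Raw signal intensity per probe and array, as deposited by the authors, was neither background-subtracted nor normalized, as the values show; the submitters' processing notes name GenomeStudio as the software (version not given in the sources used here). The detection score deposited beside it was turned into a p by subtracting it from 1, since it increases with the signal. The authors' normalized intensity values were deposited on a linear scale, quantile normalized as their medians show, and served as an alternative. Per the labels' protocols, RNeasy-extracted RNA treated with DNase was amplified and labelled with biotin.

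From these, log2 values were made with limma 3.58.1 (R 4.3.3): nec background correction from the detection p, an offset of 16, then quantile normalization. Testing required detection (p under 0.05) on 2 or more of the 6 arrays, and the brightest such probe stood for its gene. Genotypes were compared by lmFit and eBayes without a covariate, with Benjamini-Hochberg adjustment at 0.05 over all genes. Of 45281 probes, the platform annotation gave 1 gene symbol to 34885, several to 18 and none here to 10378. Where the dimmer group had no detected array, folds are given as lower bounds, taken against those arrays' lowest detected signal or the probe's own, whichever was higher. For a single value, exact permutation of 2 against 4 arrays allows no two-sided p below 0.0667. A summed signal adds the normalized linear values of a list's tested genes. Procedures were tested on simulated data. Promoters were aligned and searched with Biopython 1.88.

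The genes and lists were chosen with earlier results of these data known. Named were all 10 genes, the 4 or fewer most changed called genes of each list (the brightest 2 for lists without a call), and the 8 genes closest to the mean of the tested genes. Other genes that appear were chosen after their values were seen. Pairing by replicate number was checked (closing section).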

Additional observations from a re-analysis of the deposited data

How the results depend on the processing

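Fold changes, counts of calls and list medians were recomputed under 17 alternatives (16 for Igll1): the authors' normalized values, no background correction, scaling to the 75th percentile, an offset of 50, no detection filter, a detection p under 0.01, the mean of a gene's probes, array weights, a replicate block by either numbering, leaving out each array, and adjustment over all tested probes (added after seeing the data). Correlations were recomputed only without double-knockout array 3, and which array was highest was not. The number of tested macrophage and leukocyte genes that passed was 1 (Laptm5) in place of 0 with no background correction, with an offset of 50 and on the authors' values, and 0 otherwise. The count of all genes that passed, 1229, ranged from 185 (without wildtype array 2) to 1194 when an array was left out, with 409 when wildtype array 3 and 704 when double-knockout array 1 was dropped. Directions turned for small, uncalled log2 fold changes when an array was left out. The range was -0.0894 to 0.0745 for C1qa (negative without wildtype array 2 or double-knockout array 2), -0.129 to 0.219 for Tyrobp (negative without double-knockout array 2 or 3), -0.0581 to 0.561 for Lyz2 (negative without double-knockout array 3), -0.0325 to 0.804 for Cd59a, -0.0694 to 0.136 for Serping1 and -0.840 to 1.02 for S100a8 (negative without wildtype array 2 or double-knockout array 3). The median over the granulocyte markers was -0.31 without double-knockout array 3. The causes of these shifts were not tested.

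Titles and descriptions number the arrays differently. Deviations of same-numbered arrays correlated at -0.12 by the titles and 0.02 by the descriptions. No pairing was seen by either numbering, but a single difference per genotype cannot show that there was none. With a replicate block by title numbers 428 genes passed and 0 engulfment genes rose, with description numbers 1088 and 2. S100a8 turned to -0.16 with the block by description numbers. With 2 wildtype arrays, every call leans on limma's pooled spread. Genes near background, such as Timd4, Vpreb1 and Igll1, have only a bound.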
